A study of Mus musculus with 8 samples.

Results

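The mitosis and G2/M genes described here are 43 listed mouse genes whose products drive entry into mitosis, build the spindle and kinetochores, separate the chromosomes and split the cell. They were matched by gene symbol to the probe sets of the arrays, and each gene was represented by its probe set with the highest mean signal. This gave 41 measured genes among 17097 in all; Ccnb1, which encodes cyclin B1, and Nuf2, a kinetochore protein, were not analysed here. The cells were basal cells of the interfollicular epidermis of back skin from CD1 mice, an outbred strain, sorted as ITGA6-positive and CD34-negative, with 300 cells and 1 array per mouse. EXPD4 comprised 3 mice at day 4 of force-mediated expansion of the skin. TPA comprised 2 mice treated with 12-O-tetradecanoylphorbol-13-acetate, a phorbol ester used to provoke hyperplasia in mouse epidermis, at a dose and for a time not given in the sources used here. CTRL comprised 3 untreated mice. No transgene or other allele is named for any group, and age and sex are not given. All samples shared the overnight trypsin step at 4 °C, the sort and 25 cycles of cDNA amplification, and the p-values measure the spread between mice.

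Most cell division in the epidermis takes place in the basal layer. Cells commit to mitosis when the kinase Cdk1, bound to a cyclin, is switched on by Cdc25 phosphatases. The Aurora and Polo kinases then organise the spindle, the spindle checkpoint holds the cell until every chromosome is attached, and the anaphase-promoting complex (APC/C) ends the phase by marking cyclin B and securin for destruction. Transcripts of these genes are low in resting cells and accumulate in G2 and M phase, so their level in a bulk sample follows both the share of cells in these phases and the amount of RNA in each. Fewer cells in G2 or M and less RNA per cell cannot be told apart in these data.

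Signals are RMA values on the log2 scale, so a difference of 1 is a 2-fold change. A signal was called under the background limit when it lay below the 95th percentile, on the same array, of 79 genes for odour, pheromone and trace amine receptors, which was between 6.37 and 6.55. Of the 41 genes, 40 were above the limit on every array, and the exception was Ect2. Within a group the arrays correlated at r = 0.99 over all genes. Krt5 and Krt14, the keratins of the basal layer, were near the top of the scale on every array (Krt5 averaged 13.29, 13.33 and 13.28 in EXPD4, TPA and CTRL) and close to the highest signal in the table. Krt15, another basal keratin on the same list, was higher than in CTRL in both groups, 2.34-fold in EXPD4 (adjusted p = 0.000106) and 5.21-fold in TPA (adjusted p = 2.54e-06). Cd34, which the sort excluded, was under the limit on every array. Itga6, the integrin used for the sort, averaged 11.80 ± 0.04 in EXPD4, 11.58 ± 0.09 in TPA and 12.27 ± 0.04 in CTRL (SD, n = 3, 2 and 3). It passed as lower than in CTRL in both groups, at -0.47 in EXPD4 (limma, adjusted p = 0.00275) and at -0.69 in TPA. Of 7 gate and basal genes, 1 passed as lower (Itga6) and 1 as higher (Krt15) in each group. What this means for the cells compared was not tested.

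Genes known to rise after phorbol ester or wounding ran against the labels. All 10 measured genes of a list of 11 passed as lower in the arrays labelled TPA than in those labelled CTRL. Among them were Krt6a, Krt16 and the ornithine decarboxylase gene Odc1. Over all genes, 10.6% passed in that direction. In EXPD4, 6 of the 10 passed as lower than in CTRL, where 5.78% of all genes did. Odc1 measured 8.93 and 9.05 in TPA, against 11.33, 11.36 and 11.33 in CTRL. Group names below are therefore those of the labels, and every direction that involves TPA or CTRL rests on them. Without the TPA arrays in the fit, the comparison of EXPD4 with CTRL also gave 4 mitotic genes past the threshold, with Ndc80 in place of Cenpf.

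The mitotic genes were lowest in the arrays labelled TPA. Between TPA and CTRL, 21 of the 41 genes (51.2%) passed the test as lower (limma, Benjamini-Hochberg adjusted p under 0.05 over all 17097 genes), where 10.6% of all genes did, and 1 gene, Nusap1, passed as higher, where 10.2% of all genes did; 28 of the 41 had an unadjusted p under 0.05, where 31.7% of all genes did. Between EXPD4 and CTRL, 4 genes (9.76%) passed as lower, where 5.78% of all genes did, and none passed as higher in this test, where 5.69% did; the 4 are Cdc25b, Anln, Aurka and Cenpf, and 12 of the 41 (29.3%) had an unadjusted p under 0.05, where 23.7% of all genes did. Between EXPD4 and TPA, 3 genes passed as higher (7.32%, against 3.16% of all genes), namely Pttg1, Ttk and Aurka, and none passed as lower, where 2.81% of all genes did (5.98% passed in either direction, as did 11.5% between EXPD4 and CTRL and 20.8% between TPA and CTRL), although 19 of 41 (46.3%) had an unadjusted p under 0.05, against 19.3% of all genes. The EXPD4 and TPA comparisons share the CTRL arrays and are set side by side here, not combined. Shares of all genes, here and below, count dim genes too: 32.9% of all genes were under the limit on every array. A fit on the 11103 genes above the limit on at least 2 arrays gave 1013 lower and 1035 higher in EXPD4 than in CTRL. It gave 1805 lower and 1744 higher in TPA than in CTRL. Among genes with a clear signal the shares are thus larger than those over all genes. Beside 1013 lower genes of 11103, the 4 of 41 lower in EXPD4 are not set apart from genes with a clear signal. The 5.78% given below for EXPD4 is to be read with that limit.

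Single changes were small. The 21 genes lower in TPA differed from CTRL by 1.22-fold to 1.96-fold, 12 of them by more than 1.5-fold, and in each of them the TPA and CTRL arrays did not overlap. Over all 41 genes, the arrays lay apart with TPA lower for 33 (80.5%, against 25.4% of all genes) and with TPA higher for 1 (against 20.4%). With EXPD4 in place of TPA these counts were 12 (29.3%, against 14.5%) and 1 (against 15.4%). EXPD4 and TPA lay apart with EXPD4 higher for 19 genes (46.3%, against 21.8%) and lower for 3 (against 13.9%). The median difference of the 41 genes was -0.41 between TPA and CTRL, where the median of all genes was -0.03, and -0.20 between EXPD4 and CTRL, where it was 0.01. Between EXPD4 and TPA the median was 0.20, beside 0.03 over all genes. Mean signal was below CTRL for 38 of 41 genes in TPA (56.0% of all genes) and above it for 3 (44.0% of all genes). It was below CTRL for 37 of 41 in EXPD4 (48.4% of all genes) and above it for 4 (51.6% of all genes). It was higher in EXPD4 than in TPA for 36 of 41 genes, where 58.6% of all genes were. The group means fell in the order TPA lowest, EXPD4 between and CTRL highest for 33 of 41 genes (80.5%), and 28.7% of all genes had that order; 1 of 41 had the reverse order, which 21.6% of all genes had. The order held for 27 of 41 without TPA replicate 1 and for 34 of 41 without TPA replicate 2 or without CTRL replicate 3, the lowest and highest counts with 1 array left out.

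**Figure D1:**
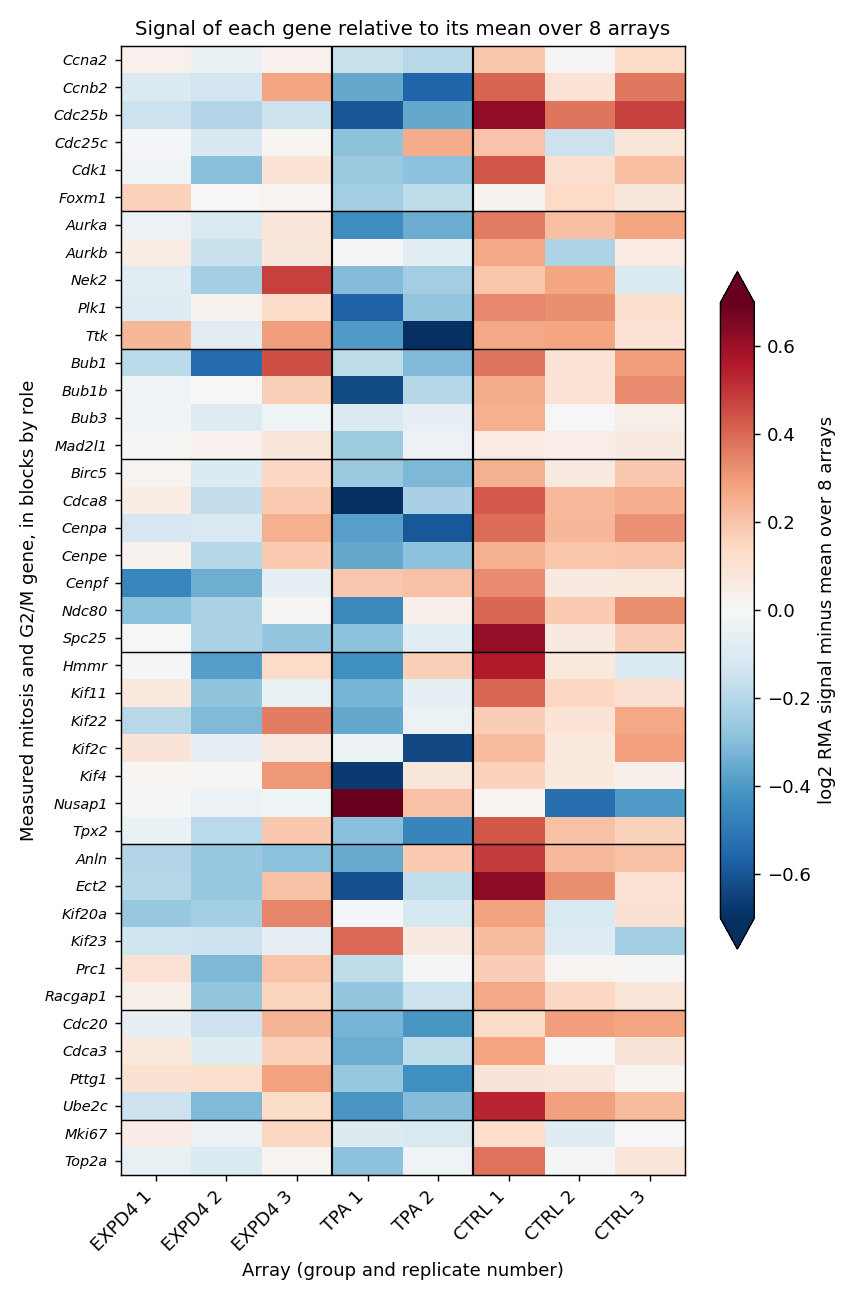
Signal of each of the 41 genes on each of the 8 arrays, as log2 RMA signal minus the gene's mean over all arrays (red above it, blue below, colours end at ±0.7), in blocks by role from the Cdk1 switch at the top to Mki67 and Top2a at the bottom. The 2 TPA columns are blue for most genes and CTRL replicate 1 is red for nearly all; Nusap1, Kif23 and Cenpf are red in both TPA columns.

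The count for TPA depended on the 2 mice. Without TPA replicate 1, 11 genes passed as lower and none as higher, and without TPA replicate 2, 14 passed as lower; the remaining array is then assumed to vary like the other groups. Of the 22 genes past the threshold, 6 (Aurka, Cdc20, Cdc25b, Cenpa, Plk1 and Ttk) kept their call under each of the 16 alternative settings run for single genes. For EXPD4 against CTRL, 1 gene passed in the fits without EXPD4 replicate 1, without EXPD4 replicate 2 and without any 1 of the 3 CTRL arrays, and 6 passed without EXPD4 replicate 3; Cdc25b alone kept its call in all 16. For EXPD4 against TPA, 1 gene passed without EXPD4 replicate 1 or replicate 3.

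The promoters of these genes share short sequences that the choice of genes did not use, and they are shown because so many of the genes were low together in TPA. Genes of G2 and M phase are known to be held down in resting cells, and switched on in G2, through the cell cycle genes homology region, with the core TTTGAA or TTCGAA, and through CCAAT boxes bound by NF-Y. RefSeq windows of 300 bases, 250 before the annotated start and 50 from it (build GRCm38.p6), were given for 37 of the 43 genes. TTTGAA or TTCGAA stood on either strand in 29 of the 37 (78.4%), against 19.4% of 27025 windows of all genes. CCAAT stood on either strand in 29 of 37 (78.4%), against 37.9%, at least 2 CCAAT in 21 of 37 (56.8%), against 12.2%, and both kinds of motif in 26 of 37 (70.3%), against 7.70%. Genes that passed in TPA and genes that did not both held them: both kinds stood in 13 of the 18 windows of genes that passed as lower (72.2%) and in 13 of the 16 of measured genes that did not pass (81.2%).

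The windows below cover 120 bases before the start to 30 from it, read 5′ to 3′ on the gene's strand. They belong to 8 genes that passed as lower in TPA and hold both kinds of motif in this stretch, and to Nusap1, the gene that passed as higher, which holds neither; they were chosen after the values were seen. Capitals mark the core of the homology region and the CCAAT boxes, on either strand. A box on the other strand reads ATTGG.
Cdc25b: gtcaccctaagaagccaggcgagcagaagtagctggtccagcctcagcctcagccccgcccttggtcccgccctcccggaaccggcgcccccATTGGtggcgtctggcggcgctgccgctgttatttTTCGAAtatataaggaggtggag
Cenpa: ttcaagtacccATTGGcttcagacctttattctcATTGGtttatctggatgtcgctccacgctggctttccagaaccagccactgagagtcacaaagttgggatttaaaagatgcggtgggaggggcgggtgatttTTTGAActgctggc
Ttk: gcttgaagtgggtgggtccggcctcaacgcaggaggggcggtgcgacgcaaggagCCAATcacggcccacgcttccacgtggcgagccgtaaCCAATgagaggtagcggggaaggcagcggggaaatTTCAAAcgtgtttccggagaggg
Cdca8: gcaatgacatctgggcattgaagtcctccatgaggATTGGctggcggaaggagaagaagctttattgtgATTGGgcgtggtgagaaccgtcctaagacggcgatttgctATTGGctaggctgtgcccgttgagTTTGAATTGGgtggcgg
Ccnb2: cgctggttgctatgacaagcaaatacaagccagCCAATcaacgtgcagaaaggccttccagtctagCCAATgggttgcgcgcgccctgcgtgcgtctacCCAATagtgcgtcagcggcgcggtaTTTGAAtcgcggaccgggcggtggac
Cdc20: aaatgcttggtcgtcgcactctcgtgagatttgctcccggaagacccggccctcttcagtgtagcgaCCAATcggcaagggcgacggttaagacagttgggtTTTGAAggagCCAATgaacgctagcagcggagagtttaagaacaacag
Ube2c: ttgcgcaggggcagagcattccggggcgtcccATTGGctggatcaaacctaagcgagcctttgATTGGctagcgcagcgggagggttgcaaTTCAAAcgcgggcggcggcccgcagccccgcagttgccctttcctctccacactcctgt
Cdk1: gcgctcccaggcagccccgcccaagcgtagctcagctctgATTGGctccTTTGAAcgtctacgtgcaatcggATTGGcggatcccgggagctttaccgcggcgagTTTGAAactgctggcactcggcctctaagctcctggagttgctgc
Nusap1: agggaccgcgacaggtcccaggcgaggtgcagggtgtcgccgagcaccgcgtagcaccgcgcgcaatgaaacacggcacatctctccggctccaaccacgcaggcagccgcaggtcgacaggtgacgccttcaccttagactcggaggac
The stretches lie at these places: Cdc25b at chr2:131186828-131186977 on the plus strand, Cenpa at chr5:30666766-30666915 on the plus strand, Ttk at chr9:83834569-83834718 on the plus strand, Cdca8 at chr4:124936888-124937037 on the minus strand, Ccnb2 at chr9:70421525-70421674 on the minus strand, Cdc20 at chr4:118437314-118437463 on the minus strand, Ube2c at chr2:164769809-164769958 on the plus strand, Cdk1 at chr10:69352883-69353032 on the minus strand and Nusap1 at chr2:119618178-119618327 on the plus strand. Each spans the annotated start used for its window. Over the 37 windows, that start equalled the start of the gene record for 18. For the 3 genes with more than 1 window, the first listed was used. Counted from +1 at the start, the motif of the homology region begins at 5 in Ccnb2, at 8 in Cdc25b and Ttk, at 14 in Cdca8 and at 17 in Cenpa, and before the start at -18 in Cdc20 and -29 in Ube2c; Cdk1 holds it at -71 and -15. At least 1 CCAAT box lies upstream of it in each of the 8. A further box lies downstream at -8 in Cdc20 and at 19 in Cdca8, where it shares a base with the motif. In Cdk1 a box at -48 lies between the motifs at -71 and -15. Besides Nusap1, the windows of Birc5, Mad2l1, Nuf2 and Pttg1 held neither motif in their 300 bases. Of these, Birc5 and Pttg1 passed as lower in TPA. Cenpe, Kif2c and Ndc80, which passed as lower there too, held 1 kind of motif alone. A match of letters is a description and not a binding site.

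The Cdk1 switch comes first in mitotic entry. Of its 6 measured genes, 5 passed as lower in TPA than in CTRL (83.3%, against 10.6% of all genes). In EXPD4, 1 passed as lower than in CTRL (16.7%, against 5.78%). A single call in a role this small, here and in the roles below, does not set the role apart from the share of all genes. The median differences were -0.41 in TPA and -0.19 in EXPD4. Cdc25b, the phosphatase that starts Cdk1 activation at the centrosome, measured 8.73, 8.67 and 8.73 in EXPD4, 8.28 and 8.52 in TPA, and 9.50, 9.25 and 9.35 in CTRL. No EXPD4 or TPA array reached the lowest CTRL array. Its signal was 1.58-fold lower in EXPD4 than in CTRL (log2 difference -0.66 ± 0.09 SE, adjusted p = 0.00231) and 1.96-fold lower in TPA than in CTRL (-0.97 ± 0.10, adjusted p = 0.000266).

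Ccnb2, which encodes cyclin B2, measured 8.86, 8.83 and 9.23 in EXPD4, 8.60 and 8.39 in TPA, and 9.36, 9.06 and 9.32 in CTRL. The TPA arrays lay below all others, and EXPD4 overlapped CTRL. The difference was -0.75 ± 0.15 between TPA and CTRL (adjusted p = 0.0073) and -0.28 ± 0.13 between EXPD4 and CTRL (adjusted p = 0.254). Cdk1 itself, the catalytic subunit, measured 10.29, 10.02 and 10.41 in EXPD4, 10.05 and 10.03 in TPA, and 10.74, 10.43 and 10.52 in CTRL. All EXPD4 and TPA arrays lay below the CTRL arrays. It passed as lower in TPA (-0.52 ± 0.13, adjusted p = 0.0228), a call lost in 5 of 16 alternatives, and did not pass in EXPD4 (-0.33 ± 0.12, adjusted p = 0.126).

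Ccna2, which encodes the cyclin A2 of S and G2 phase, differed little. It measured 11.20, 11.12 and 11.20 in EXPD4, 11.01 and 10.97 in TPA, and 11.36, 11.17 and 11.30 in CTRL, so only TPA stood clear of CTRL. It was 1.22-fold lower in TPA (-0.29 ± 0.08, adjusted p = 0.0366), and 12 of 16 alternatives took this below the threshold. Foxm1, the transcription factor that activates many G2 and M genes, was likewise lower in TPA (-0.29 ± 0.08, adjusted p = 0.0363), a call lost in 9 of 16 alternatives. In EXPD4 Foxm1 was at -0.02 ± 0.07 (adjusted p = 0.911). Cdc25c, another Cdk1 phosphatase, was the gene of this group that passed in neither comparison, at -0.06 in TPA and -0.08 in EXPD4.

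**Figure D2:**
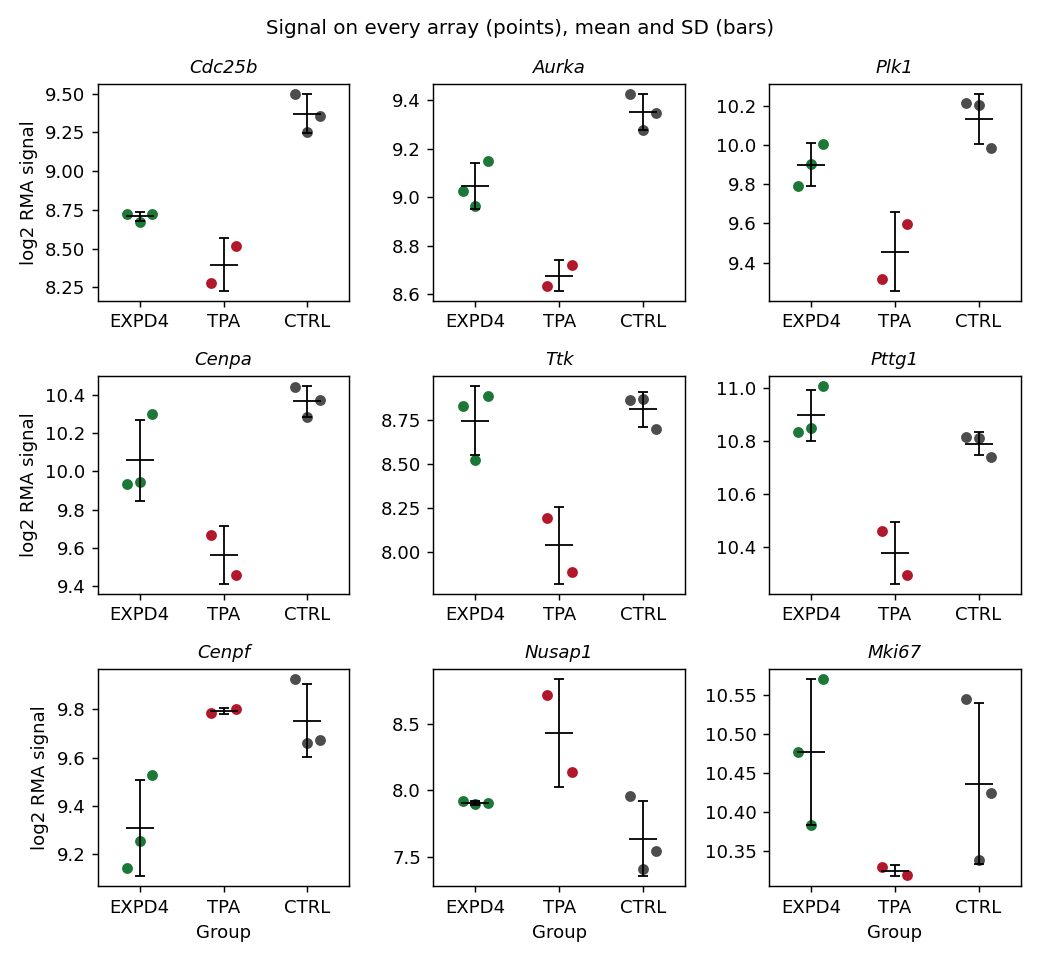
Log2 RMA signal of 9 genes on each array (points), with group means and SDs (bars), for EXPD4 (n = 3), TPA (n = 2) and CTRL (n = 3); each panel has its own scale, which does not start at 0. Cdc25b, Aurka, Plk1, Cenpa, Ttk and Pttg1 are lowest in TPA, Cenpf is lowest in EXPD4, Nusap1 is highest in TPA, and Mki67 spans little over all arrays.

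Of the 5 mitotic kinases, 3 passed as lower in TPA than in CTRL (60%, against 10.6% of all genes), with a median difference of -0.67. In EXPD4 1 of them, Aurka, passed as lower too (20%, against 5.78%), with a median of -0.07. Aurka, the Aurora kinase of the centrosome and spindle poles, measured 9.03, 8.97 and 9.15 in EXPD4, 8.63 and 8.72 in TPA, and 9.43, 9.28 and 9.35 in CTRL. The 3 groups did not overlap, with EXPD4 between the others. It was 1.60-fold lower in TPA than in CTRL (-0.67 ± 0.09, adjusted p = 0.000813). In EXPD4 it was 1.23-fold lower than in CTRL (-0.30 ± 0.08, adjusted p = 0.0396), a call lost in 7 of 16 alternatives. It was also higher in EXPD4 than in TPA (0.37 ± 0.09, adjusted p = 0.0447), a call that 13 of 16 alternatives lost.

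Plk1, the Polo kinase that acts from mitotic entry to cytokinesis, measured 9.79, 9.90 and 10.01 in EXPD4, 9.31 and 9.60 in TPA, and 10.22, 10.20 and 9.99 in CTRL. TPA lay below every other array, and EXPD4 overlapped CTRL. The difference was -0.68 ± 0.12 between TPA and CTRL (adjusted p = 0.00386) and -0.24 ± 0.11 between EXPD4 and CTRL (adjusted p = 0.222). Ttk, the checkpoint kinase also called Mps1, measured 8.83, 8.52 and 8.88 in EXPD4, 8.19 and 7.89 in TPA, and 8.86, 8.87 and 8.70 in CTRL, so the EXPD4 arrays were spread over the CTRL range. Ttk was 1.70-fold lower in TPA than in CTRL (-0.77 ± 0.14, adjusted p = 0.0041) and 1.63-fold higher in EXPD4 than in TPA (0.70 ± 0.14, adjusted p = 0.0202).

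Aurkb, the Aurora kinase of the chromosomal passenger complex, did not pass in any comparison. It measured 10.11, 9.90 and 10.14 in EXPD4, 10.05 and 9.99 in TPA, and 10.33, 9.84 and 10.12 in CTRL, and the groups overlapped. The difference was -0.08 ± 0.14 between TPA and CTRL (adjusted p = 0.758) and -0.05 ± 0.12 between EXPD4 and CTRL (adjusted p = 0.89). Nek2, a centrosome kinase, was at -0.40 ± 0.20 in TPA (adjusted p = 0.214).

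Among the 4 spindle checkpoint genes, 1 passed as lower in TPA than in CTRL (25%, against 10.6% of all genes). None passed in EXPD4, where 11.5% of all genes passed in either direction. There 0 of 4 had an unadjusted p under 0.05, as 23.7% of all genes had. Bub1b, which encodes the checkpoint protein BubR1, measured 8.52, 8.55 and 8.71 in EXPD4, 7.92 and 8.35 in TPA, and 8.81, 8.65 and 8.88 in CTRL. Both TPA arrays lay below all others. It was 1.56-fold lower in TPA (-0.65 ± 0.13, adjusted p = 0.00964). Bub1, Bub3 and Mad2l1, the other checkpoint genes, were at -0.50, -0.18 and -0.20 in TPA, with adjusted p-values of 0.203, 0.231 and 0.133.

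Kinetochore, centromere and passenger genes held 5 of 7 that passed as lower in TPA (71.4%, against 10.6% of all genes), with a median difference of -0.51. In EXPD4 1 of 7 passed as lower (14.3%, against 5.78%), with a median of -0.31. Cenpa, the histone H3 variant that marks the centromere, measured 9.93, 9.94 and 10.30 in EXPD4, 9.67 and 9.46 in TPA, and 10.44, 10.28 and 10.37 in CTRL. TPA was clear of both other groups, and EXPD4 replicate 3 reached the CTRL range. The difference was -0.80 ± 0.13 between TPA and CTRL (adjusted p = 0.00251) and -0.31 ± 0.11 between EXPD4 and CTRL (adjusted p = 0.139). Cdca8, which encodes borealin of the passenger complex, was at -0.80 ± 0.16 in TPA (adjusted p = 0.00859). Its partner Birc5, survivin, was at -0.46 ± 0.10 (adjusted p = 0.00972), and so 2 of the passenger genes passed as lower while Aurkb, their kinase, did not pass. The kinetochore motor Cenpe and the Ndc80 complex member Ndc80 passed as lower as well, at -0.54 and -0.51. The call of Ndc80 was lost in 9 of 16 alternatives. Spc25 of the Ndc80 complex did not pass (-0.46 ± 0.17, adjusted p = 0.0859).

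Cenpf, a large kinetochore and nuclear matrix protein of G2 and M, measured 9.14, 9.25 and 9.53 in EXPD4, 9.78 and 9.80 in TPA, and 9.93, 9.66 and 9.67 in CTRL. The EXPD4 arrays lay below all others, and TPA lay within the CTRL range. It passed as lower in EXPD4 than in CTRL (-0.45 ± 0.12, adjusted p = 0.0408), a call lost in 10 of 16 alternatives, and was at 0.04 ± 0.13 in TPA (adjusted p = 0.877). A second probe set of Cenpf above the limit on every array was at -0.04 ± 0.16 in EXPD4 and at 0.32 ± 0.18 in TPA, neither past the threshold.

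**Figure D3:**
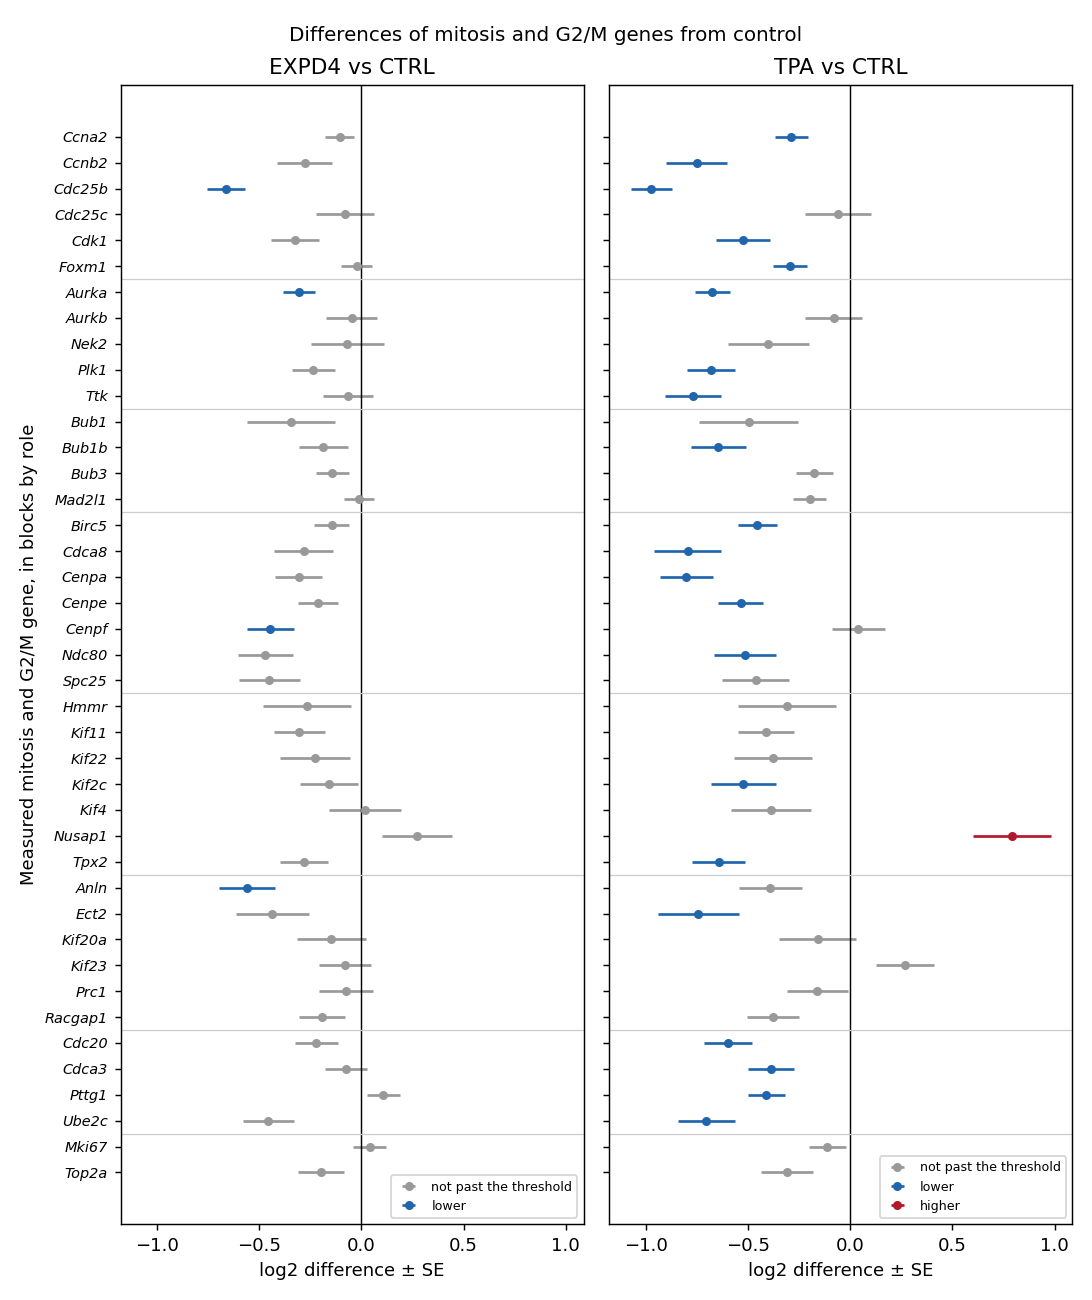
Log2 difference from CTRL, with its SE (bars), of the 41 genes in EXPD4 (left) and TPA (right), in blocks by role; blue marks genes that passed as lower, red the gene that passed as higher and grey those not past the threshold. The blue genes number 4 in EXPD4 and 21 in TPA; Nusap1, at 0.79, is the red one.

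Spindle motors and microtubule binders were mixed in TPA. Of 7, 2 passed as lower than in CTRL (28.6%, against 10.6% of all genes) and 1 as higher (14.3%, against 10.2%). None passed in EXPD4, where Kif11 and Tpx2 were under an unadjusted p of 0.05, as 23.7% of all genes were. Tpx2, which activates Aurka on spindle microtubules, was at -0.64 ± 0.13 in TPA (adjusted p = 0.00843). Kif2c, a kinesin that takes microtubules apart at kinetochores, was at -0.52 ± 0.16 in TPA (adjusted p = 0.0495), a call lost in 9 of 16 alternatives. Nusap1, which bundles spindle microtubules, measured 7.92, 7.89 and 7.90 in EXPD4, 8.72 and 8.14 in TPA, and 7.96, 7.41 and 7.54 in CTRL; it is given in full because it was the only one of the 41 to pass as higher in TPA. Both TPA arrays were above every CTRL array, but they differed from each other by more than the 3 CTRL arrays did. The difference was 0.79 ± 0.19 (adjusted p = 0.0189), and 5 of 16 alternatives lost the call, among them those without TPA replicate 1, CTRL replicate 2 or CTRL replicate 3. The other motors were not past the threshold in TPA: Kif11, which pushes the spindle poles apart, was at -0.41, the chromosome-arm kinesins Kif22 and Kif4 at -0.38 and -0.39, and Hmmr, a spindle pole protein, at -0.31. A second probe set of Kif11, above the limit on every array, had the opposite sign. It was at 0.11 ± 0.12 in EXPD4 and at 0.23 ± 0.13 in TPA, neither past the threshold. Kif4 had the highest SD of the 41 genes in TPA, with arrays at 7.35 and 8.10.

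Of the 6 midzone and cytokinesis genes, 1 passed as lower in TPA (16.7%, against 10.6% of all genes) and 1 in EXPD4 (16.7%, against 5.78%). A single call among 6 genes does not set this role apart from these shares. Anln, which encodes the contractile ring protein anillin, measured 8.66, 8.60 and 8.58 in EXPD4, 8.51 and 9.05 in TPA, and 9.36, 9.09 and 9.07 in CTRL. The EXPD4 arrays lay close together and below CTRL, and 1 TPA array lay at the lower edge of CTRL. It was 1.47-fold lower in EXPD4 (-0.56 ± 0.14, adjusted p = 0.0334), a call lost in 7 of 16 alternatives. In TPA it was at -0.39 ± 0.15 (adjusted p = 0.117). Its second probe set was above the limit on 2 arrays, with a mean of 6.90 in TPA and of 6.19, under the limit, in CTRL; it passed as higher in TPA (adjusted p = 0.00516 over all single-symbol probe sets), and no fold is given because the CTRL signal is not above background.

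Ect2, the exchange factor that switches on RhoA at the cleavage furrow, was under the limit on every EXPD4 and TPA array and above it on 2 of 3 CTRL arrays. It passed as lower in TPA than in CTRL (adjusted p = 0.0306), with means of 5.89 and 6.64, and since the TPA signal is only a bound it was at least 1.12-fold lower. The other cytokinesis genes did not pass in TPA: Kif20a, Prc1 and Racgap1 were at -0.16, -0.16 and -0.38, and Kif23, a midzone kinesin, at 0.27 ± 0.14 (adjusted p = 0.25).

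All 4 genes of the APC/C and of anaphase passed as lower in TPA than in CTRL (100%, against 10.6% of all genes), with a median difference of -0.50. None passed in EXPD4, where Ube2c alone had an unadjusted p under 0.05, as 23.7% of all genes had. Cdc20, the APC/C activator, measured 10.18, 10.09 and 10.47 in EXPD4, 9.90 and 9.82 in TPA, and 10.36, 10.52 and 10.51 in CTRL. TPA lay below all others and EXPD4 replicate 3 reached the CTRL range. The difference was -0.60 ± 0.12 between TPA and CTRL (adjusted p = 0.00736) and -0.22 ± 0.11 between EXPD4 and CTRL (adjusted p = 0.26). Ube2c, the ubiquitin-conjugating enzyme of the APC/C, measured 10.69, 10.52 and 10.96 in EXPD4, 10.43 and 10.53 in TPA, and 11.36, 11.12 and 11.06 in CTRL. No EXPD4 or TPA array reached the CTRL range. It was 1.63-fold lower in TPA (-0.70 ± 0.14, adjusted p = 0.00782) and just missed the threshold in EXPD4 (-0.46 ± 0.13, adjusted p = 0.0519).

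Pttg1, which encodes securin, the inhibitor of separase, measured 10.83, 10.85 and 11.01 in EXPD4, 10.46 and 10.30 in TPA, and 10.81, 10.81 and 10.74 in CTRL, with every EXPD4 array above every CTRL array by a narrow margin. It was lower in TPA than in CTRL (-0.41 ± 0.09, adjusted p = 0.0114) and 1.43-fold higher in EXPD4 than in TPA (0.52 ± 0.09, adjusted p = 0.0129), and was at 0.11 ± 0.08 between EXPD4 and CTRL (adjusted p = 0.503). The higher signal in EXPD4 than in TPA was not seen by each of its probe sets: of 2 others above the limit on every array, 1 was at 0.50 (adjusted p = 0.0308) and 1 at -0.29 ± 0.12 (adjusted p = 0.229), and the call was lost with the mean over probe sets. Cdca3, a mitotic entry factor that the APC/C degrades, was at -0.39 ± 0.11 in TPA (adjusted p = 0.0412), a call lost in 8 of 16 alternatives.

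Both proliferation markers of the list stayed short of the threshold. Mki67, whose product Ki-67 coats mitotic chromosomes and marks all cycling cells, measured 10.48, 10.38 and 10.57 in EXPD4, 10.33 and 10.32 in TPA, and 10.55, 10.34 and 10.43 in CTRL. The TPA arrays were just below the lowest CTRL array. Its difference was -0.11 ± 0.09 between TPA and CTRL (adjusted p = 0.458) and 0.04 ± 0.08 between EXPD4 and CTRL (adjusted p = 0.848). Top2a, the topoisomerase that untangles sister chromatids, measured 8.76, 8.72 and 8.83 in EXPD4, 8.53 and 8.79 in TPA, and 9.20, 8.81 and 8.90 in CTRL. It was at -0.31 ± 0.13 in TPA (adjusted p = 0.135) and at -0.20 ± 0.11 in EXPD4 (adjusted p = 0.363). Neither passed in any of the 3 comparisons.

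A second look at the same transcripts came from further probe sets, present for 23 of the 41 genes. Of 36 such probe sets, 17 were above the limit on every array. Of these 17, 10 belonged to genes that passed between TPA and CTRL: 9 had the same sign as the probe set described above and 6 passed in the same direction (limma, adjusted over all single-symbol probe sets), for Bub1b, Cdca8, Cenpe, Foxm1, Pttg1 and Tpx2. The exception was a probe set of Pttg1 at 0.00 between TPA and CTRL, and none of the 17 passed in the opposite direction. Between EXPD4 and CTRL, 12 of the 17 had the same sign and none passed, and the 1 that belonged to a called gene, Cenpf, had the same sign. Between EXPD4 and TPA, 13 of the 17 had the same sign; of the 2 that belonged to a called gene, both of Pttg1, 1 had the same sign and passed.

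Mice of a group differed from each other more in these genes than over all genes, of which 32.9% were under the limit on every array. A median SD for genes above the limit alone is not given here. The median SD within a group was 0.16 in EXPD4, 0.15 in TPA and 0.13 in CTRL for the 41 genes, and 0.09, 0.09 and 0.11 over all genes. EXPD4 replicate 3 had the highest signal of its group for 33 of 41 genes (80.5%, against 33.6% of all genes), EXPD4 replicate 2 the lowest for 31 of 41 (75.6%, against 37.5%), and CTRL replicate 1 the highest of its group for 33 of 41 (80.5%, against 31.6%). The mean over the 41 genes was 8.99, 8.88 and 9.16 in EXPD4, 8.77 and 8.86 in TPA, and 9.34, 9.13 and 9.17 in CTRL. EXPD4 replicate 3 thus stood among the CTRL arrays and EXPD4 replicate 2 next to the TPA arrays. CTRL replicate 1 also had the highest mean of 7 endothelial markers, 7.35 against 6.18 and 6.33 on the other CTRL arrays, with Tek, Vwf and Esam under the limit on every array; its part in the level of the mitotic genes was not tested. Without CTRL replicate 1, 15 genes passed as lower in TPA and 1 in EXPD4.

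**Figure D4:**
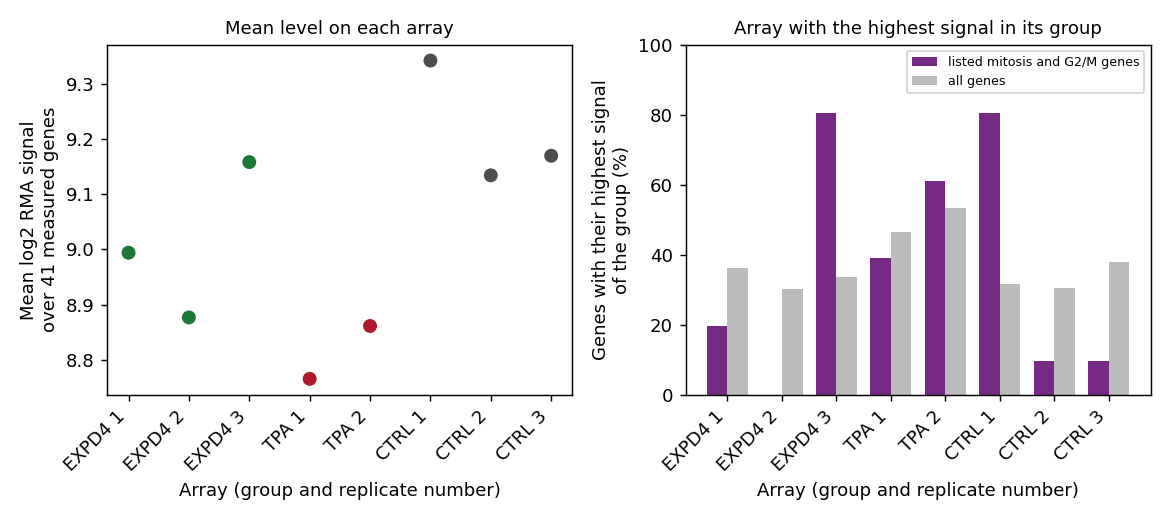
Left, mean log2 RMA signal over the 41 genes on each array (axis not from 0), coloured by group. Right, the percentage of genes with their highest signal of the group on each array, for the 41 genes (purple) and for all genes (grey); EXPD4 replicate 3 and CTRL replicate 1 each hold 80.5% of the 41.

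Other genes of mitosis, a list of 95 with 89 measured, were counted the same way. Of the 89, 20 passed as lower in TPA than in CTRL (22.5%, against 10.6% of all genes) and 3 as higher (3.37%, against 10.2%), with a median difference of -0.24. Of the 3 higher genes, Lin52 was under the limit on every array. Between EXPD4 and CTRL, 3 passed as lower (3.37%, against 5.78%) and 1 as higher (1.12%, against 5.69%), with a median of -0.10. Between EXPD4 and TPA, 5 passed as higher (5.62%, against 3.16%) and 1 as lower (1.12%, against 2.81%). Zwint and Mad1l1, both kinetochore and checkpoint proteins, were at -0.80 ± 0.09 (adjusted p = 0.000335) and -0.69 ± 0.08 (adjusted p = 0.000559) in TPA, and at -0.38 (adjusted p = 0.0165) and -0.57 (adjusted p = 0.0019) in EXPD4. Mybl2, the B-Myb factor that works with Foxm1 on these promoters, measured 8.97, 8.29 and 8.61 in EXPD4, 7.52 and 7.62 in TPA, and 8.66, 8.95 and 8.88 in CTRL. It was 2.40-fold lower in TPA than in CTRL (adjusted p = 0.00132) and 2.08-fold higher in EXPD4 than in TPA (adjusted p = 0.0125). Wee1, the kinase that keeps Cdk1 off, went the other way: it was 1.71-fold higher in TPA than in CTRL (0.78 ± 0.11, adjusted p = 0.00114) and lower in EXPD4 than in TPA (-0.64 ± 0.11, adjusted p = 0.0119). Psrc1, a microtubule protein of the anaphase spindle, was higher in EXPD4 (0.54 ± 0.09, adjusted p = 0.00481) and in TPA (0.55 ± 0.10, adjusted p = 0.00423) than in CTRL.

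**Figure D5:**
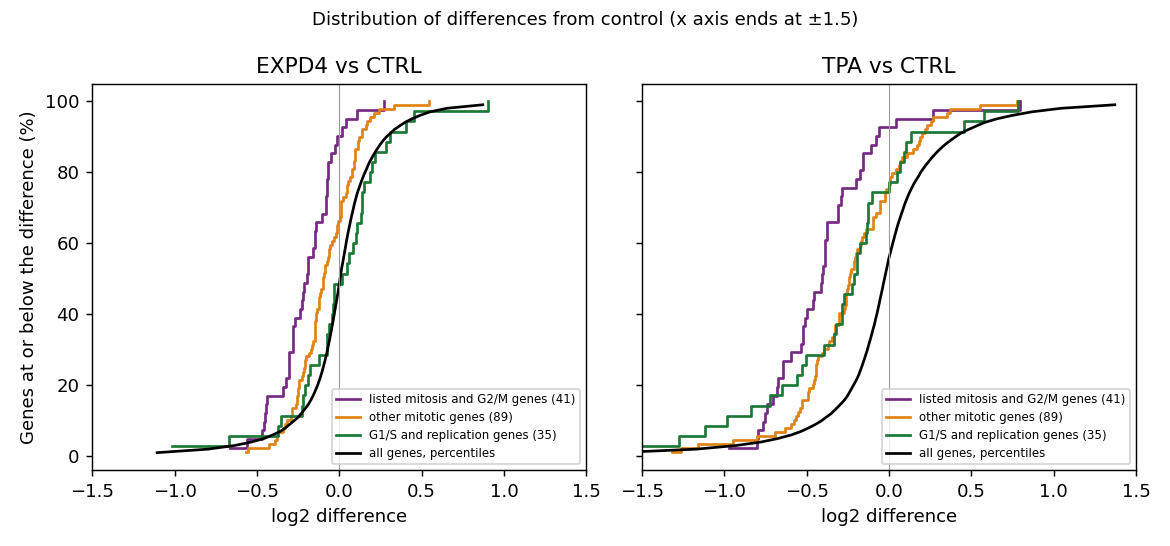
Cumulative share of genes (percent, y axis) at or below each log2 difference from CTRL (x axis, drawn to ±1.5) in EXPD4 (left) and TPA (right), for the 41 genes, 89 other mitotic genes, 35 G1/S and replication genes and the percentiles of all genes. Over most of the range the 41 genes lie left of all genes in both panels, with medians of -0.20 in EXPD4 and -0.41 in TPA, while the replication genes follow all genes in EXPD4.

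Genes of the preceding phase, a list of 36 for G1/S and replication with 35 measured, had a median of 0.02 between EXPD4 and CTRL, with 3 that passed as higher (8.57%, against 5.69% of all genes) and 4 as lower (11.4%, against 5.78%). Between TPA and CTRL the median was -0.21, with 3 higher (8.57%, against 10.2%) and 11 lower (31.4%, against 10.6%). Between EXPD4 and TPA the median was 0.29, beside 0.20 for the 41 mitotic genes. There 7 passed as higher (20%, against 3.16%) and 0 as lower (against 2.81%). Rrm2, the ribonucleotide reductase subunit of S phase, was 2.43-fold lower in TPA than in CTRL (adjusted p = 1.92e-05), and Mcm5, of the replicative helicase, 1.57-fold lower (adjusted p = 0.00105). E2f7, a repressor of the E2F family, was under the limit on both TPA arrays and at least 3.57-fold lower there than in CTRL (adjusted p = 4e-06), and was 2.02-fold lower in EXPD4 than in CTRL (adjusted p = 0.00095). Of 7 CDK inhibitors, Cdkn1a (p21) was lower in both groups than in CTRL, at -0.47 in EXPD4 (adjusted p = 0.00219) and -0.41 in TPA (adjusted p = 0.0043). Cdkn2b (p15) was 1.75-fold higher in EXPD4 (adjusted p = 0.026), and Cdkn1b (p27) 1.64-fold higher in TPA (adjusted p = 0.0202).

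Part of the markers of cells that have left the basal layer were higher in EXPD4 and TPA. Of 10 suprabasal genes, 5 passed as higher in EXPD4 than in CTRL (50%, against 5.69% of all genes). In TPA, 5 passed as higher than in CTRL (50%, against 10.2%), and 0 passed as lower in either group. Of the 10, 3 had a lower mean in EXPD4 than in CTRL: Ivl (-0.33 ± 0.13), Tgm3 (-0.07 ± 0.07) and Flg. The 1 with a lower mean in TPA was Ivl, at 8.05 against 8.53 in CTRL. Krt10, the keratin of the spinous layer, measured 12.75, 12.75 and 12.70 in EXPD4, 12.73 and 12.71 in TPA, and 11.92, 10.96 and 10.90 in CTRL. The summed linear signal of the list was 31082 to 33554 in EXPD4, 30091 to 32186 in TPA and 16455 to 20692 in CTRL, and Lor and Flg, markers of the outermost living layer, were under the limit on every array. Some markers of other cells passed as well. Over all genes, 5.78% passed as lower and 5.69% as higher in EXPD4 than in CTRL. In TPA, 10.6% passed as lower and 10.2% as higher than in CTRL. In lists this short, a single call does not set a list apart from these shares. Of 8 macrophage and neutrophil markers, 2 passed as lower in EXPD4 than in CTRL (Cd14 and Cxcr2) and 3 in TPA than in CTRL (these and S100a8), but Cxcr2, like Adgre1 and Ptprc, was under the limit on every array. Their summed signal was 1411 to 1415 in EXPD4, 558 to 694 in TPA and 2028 to 2191 in CTRL. S100a8, which stressed keratinocytes also express, made up much of it in EXPD4 (930 to 931) and CTRL (1058 to 1660), but less in TPA (84 to 231). The other 7 summed to 481 to 483 in EXPD4, 463 to 474 in TPA and 531 to 970 in CTRL. Of 8 Langerhans cell markers, 2 passed as lower in EXPD4 (H2-Ab1 at -1.93, adjusted p = 0.0124, and Epcam) and 1 in TPA, H2-Ab1 again, at least 4.02-fold lower (adjusted p = 0.00371). Their summed signal was 1098 to 1259 in EXPD4, 1399 to 1512 in TPA and 1664 to 2421 in CTRL, with Cd207, Itgax and Ptprc under the limit on every array. Of 7 fibroblast markers, 1 passed, Dcn, 3.24-fold higher in TPA than in CTRL (adjusted p = 0.00117). The list summed to 626 to 1330 in EXPD4, 783 to 893 in TPA and 783 to 2050 in CTRL, with Col1a2, Pdgfra and Lum under the limit on every array. Of 6 hair follicle bulge markers, Postn passed as higher in EXPD4 (2.49-fold, adjusted p = 0.00193) and in TPA (3.74-fold, adjusted p = 0.000227), and Nfatc1 in TPA. That list summed to 3378 to 4505 in EXPD4, 5007 to 5362 in TPA and 2229 to 2602 in CTRL, with Cd34, Lgr5 and Lhx2 under the limit on every array. Among 6 T cell markers Thy1 passed as higher in both groups, and the other 5 were under the limit on every array. Of 5 infundibulum markers Plet1 passed as lower in both. Of 7 melanocyte markers, Mitf passed as higher in TPA while under the limit on every array. The part of these cells in the lower mitotic signals was not tested.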

How the data were processed

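Each of the 8 arrays (Affymetrix HT MG-430 PM design) held amplified cDNA from 300 sorted cells of 1 mouse. The authors deposited log2 signals per probe set, made with RMA per the submitters' processing notes; its version, software and probe definitions are not given in the sources used here. RMA sets all arrays to 1 distribution, so a change in total RNA is not seen. Of 45141 probe sets, 28898 had 1 gene symbol in the platform annotation, 551 several and 15588 none, and 104 were controls. Each of 17097 genes was represented by its single-symbol probe set with the highest mean over all arrays; 7180 genes had several.

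Groups followed the labels: EXPD4 (3 arrays), TPA (2) and CTRL (3). All arrays entered 1 limma fit (version 3.58.1, R 4.3.3; lmFit and eBayes, 1 coefficient per group, 5 residual and 3.54 prior degrees of freedom), with Benjamini-Hochberg adjustment over all genes and a threshold of 0.05. Simulated data with known changes were used to check the fit. Precision is limited by how few arrays each group has. Errors are SD over mice or SE of a difference. Alternatives covered normalization, a filter on low signals, the choice of probe set, eBayes settings, array weights, the groups in the fit, the replicate number as a block and leaving out each array. The order of group means without each array was added after seeing the data. Motifs were counted in RefSeq windows (GRCm38.p6; Python 3.11.15, pandas 2.3.3).

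The listed genes, roles and other lists were chosen with earlier results of these data known. Any of the 43 genes could be named. Values per array were set down for genes past the threshold, up to 8 per comparison by smallest p, and for Mki67, Top2a, Cdk1, Ccna2, Plk1 and Aurkb. Bub1b and Nusap1 were added after their values were seen. Of the other lists, up to 4 genes per comparison with the smallest p were named, and a gene named for one comparison may be given in another.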

Additional observations from a re-analysis of the deposited data

How the results depend on the processing

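The medians of the 41 differences kept their sign and stayed within the spread between arrays under every alternative run, and no called gene reversed. Genes that passed as lower in TPA than in CTRL numbered 11 to 19 with 1 array left out, and 16 with the replicate number as a block. Genes lower in EXPD4 than in CTRL numbered 1 to 6 with 1 array left out, and 1 with the replicate block. The gene higher in TPA than in CTRL became 0 with the mean over probe sets or with only the 2 groups compared in the fit, 2 with every probe set tested by itself, and 0 to 1 with 1 array left out. Genes higher in EXPD4 than in TPA numbered 0 with only the 2 groups, 1 with the replicate block and 1 to 4 with 1 array left out; genes lower there numbered 1 with the mean over probe sets, 1 with every probe set and 1 with trended robust eBayes, and 0 to 1 with 1 array left out. The labels do not say whether mice with the same replicate number were paired. Residuals of same-numbered arrays correlated at -0.18 to 0.03 between EXPD4 and CTRL, and within that range for the pairs with TPA. So few arrays cannot settle whether there was a pairing. Over all genes, EXPD4 against TPA gave 541 higher and 481 lower, but 257 and 254 with only the 2 groups and 274 and 267 with the block. The cause of these shifts was not tested. With TPA at 1 array, that array is assumed to vary like the others. Signals near background limit only Ect2 among the 41.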
